A study of Mus musculus with 32 samples.

Results

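Igf2, H19, Dlk1, Meg3, Peg3, Plagl1, Mest, Cdkn1c and Grb10 are imprinted genes with roles in growth, and their levels were followed in the lungs of newborn mice at P5 and P14 in 21% O2 or 85% O2. The 9 genes were taken by name: every probe of the array whose annotated gene name was one of these symbols was used, which gave 9 of the 35715 gene names and 24 of the 55681 mouse probes on the array. Each gene is described by its brightest probe over all 32 arrays, and the 15 other probes are given where they differ.

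The samples were whole lungs of C57Bl/6J mice (male and female animals were used), with a separate array for each of 32 mice and 8 groups of 4. Pups were kept in room air (21% O2) or in 85% O2, a hyperoxia model of bronchopulmonary dysplasia in which the formation of alveoli is arrested, with nursing dams rotated between the chambers. All 32 mice had been injected with a locked nucleic acid oligonucleotide, either antimiR-34a, which blocks miR-34a, or a scrambled antimiR, so that no group was untreated. Lungs were taken at P5 or P14, and the labels add a fraction of a day to both ages. A group is therefore P5 or P14, 21% O2 or 85% O2, and scrambled antimiR or antimiR-34a. Because whole lung was measured, fewer cells of a type and less RNA per cell cannot be told apart. The labels do not give litters, so the 4 mice of a group may share a dam.

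Imprinted genes are transcribed mainly from one parental copy, as set by DNA methylation laid down in the germline. Many of them act on growth before birth and are switched down as postnatal growth slows. Igf2 (insulin-like growth factor 2), Dlk1 (a membrane protein that holds back differentiation), Peg3 and Plagl1 (zinc finger proteins) and Mest (a hydrolase-like protein of mesoderm) are expressed from the paternal copy. H19 and Meg3 (long non-coding RNAs), Cdkn1c (the cyclin-dependent kinase inhibitor p57) and Grb10 (an adaptor that dampens insulin and IGF receptor signalling) are expressed mainly from the maternal copy. Igf2 and H19 share a domain on distal chromosome 7, next to that of Cdkn1c, and Dlk1 and Meg3 share a domain on chromosome 12.

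The non-coding members are read by probes whose letters show what was measured. The array annotation (mm9) places the main H19 probe at chr7:149761492-149761551 on the minus strand and the main Meg3 probe at chr12:110809678-110809737 on the plus strand.
H19 probe: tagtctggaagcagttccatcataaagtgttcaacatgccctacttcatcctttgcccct
Meg3 probe: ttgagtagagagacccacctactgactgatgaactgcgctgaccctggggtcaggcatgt
Dlk1 and Meg3 are neighbours, and at P14 with scrambled antimiR the main Dlk1 probe was lower and the main Meg3 probe higher in 85% O2 (below), so the 250 bases before each transcription start are shown from RefSeq (GRCm38.p6), with each CG dinucleotide, the site of DNA methylation, in capitals. The Dlk1 stretch is chr12:109452573-109452822 and the stretch of the more upstream Meg3 start is chr12:109540746-109540995, both on the plus strand.
Dlk1 upstream: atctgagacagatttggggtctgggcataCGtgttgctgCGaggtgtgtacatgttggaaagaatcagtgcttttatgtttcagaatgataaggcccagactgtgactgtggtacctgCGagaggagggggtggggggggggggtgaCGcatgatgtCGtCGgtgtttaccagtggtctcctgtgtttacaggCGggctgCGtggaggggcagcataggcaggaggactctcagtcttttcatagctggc
Meg3 upstream: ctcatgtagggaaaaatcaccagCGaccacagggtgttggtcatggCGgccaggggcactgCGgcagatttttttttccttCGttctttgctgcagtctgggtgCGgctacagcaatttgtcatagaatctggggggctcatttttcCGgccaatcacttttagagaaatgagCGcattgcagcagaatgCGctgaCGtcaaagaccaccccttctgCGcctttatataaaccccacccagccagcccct
They hold 8 and 10 CG dinucleotides. Over the 14 starts listed for 7 of the 9 genes, the number ran from 0 (a downstream Meg3 start) to 40 (a Grb10 start) with a median of 9, against a median of 6 over all 32851 starts. A TATAAA element (searched on both strands) was found before 1 of the 14 starts, that of the Meg3 stretch shown, and before 12.4% of all starts. GGGGCCCC, a palindrome of the kind bound by the Plagl1 protein, was found before 1 of the 14, that of Peg3, and before 0.889% of all starts. Such matches describe the letters only, and methylation was not measured.

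All 9 main probes were well above background on 32 of 32 arrays, and 22 of the 24 member probes were; the exceptions were a Dlk1 probe (31 arrays) and an H19 probe (16 arrays). Between 33616 and 40788 probes were well above background per array. All 8 epithelial, 8 endothelial and 10 mesenchymal marker genes of the lists used were so on every array. The arrays lay on 4 slides of 8, and a slide carried mice of a single age and oxygen level with both antimiRs. Differences between ages or oxygen levels therefore cannot be told apart from differences between slides, whereas the antimiRs were compared within slides. The array of P5 21% O2 scrambled antimiR replicate 4 carried skeletal muscle transcripts: its mean over 7 muscle genes (each set relative to its own mean over the 32 arrays, log2) was 4.65, against -1.28 to 1.48 on the other 31. On the same array, Igf2 stood 1.98 and H19 1.67 log2 units above the mean of the other 3 mice of the group, and Meg3 0.76, Dlk1 0.64, Cdkn1c 0.60 and Peg3 0.54, against a median of -0.04 over all tested probes. Plagl1 (0.07), Mest (-0.08) and Grb10 (-0.17) were not raised. Igf2, H19, Dlk1 and Meg3 are also made by developing muscle.

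**Figure D1:**
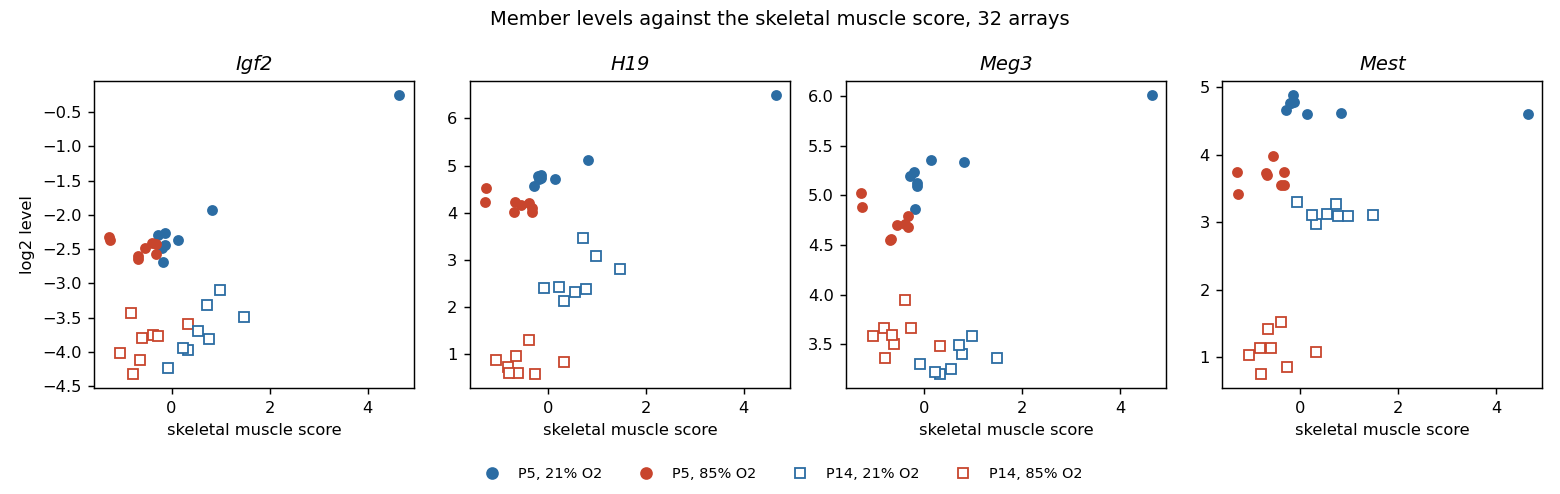
Log2 levels of 4 members (y axes, scaled to the array's 75th percentile) against the skeletal muscle score of the same array (x axes, mean log2 deviation over 7 muscle genes), with 1 point per mouse, filled circles for P5 and open squares for P14, blue for 21% O2 and red for 85% O2. The array with a score of 4.65 is the highest of its group in Igf2, H19 and Meg3, but not in Mest.

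From P5 to P14, 8 of the 9 genes fell in 21% O2 and 7 fell in 85% O2 in mice given scrambled antimiR, and no member rose on its main probe (limma, adjusted p under 0.05). Dlk1 fell the most, to 7.14% of its P5 level in 21% O2 and to 4.42% in 85% O2. H19 fell 7.12-fold and 9.98-fold, and Mest to 33.2% and 17.4%. Cdkn1c was not called in 21% O2 and fell in 85% O2, whereas Grb10 and Peg3 fell in 21% O2 and were not called in 85% O2. Over all 39163 probes tested with both ages, 23.5% were called lower at P14 in 21% O2 and 16.2% in 85% O2. The median change of the 9 genes was -1.59 in 21% O2 and -1.04 in 85% O2 on the log2 scale, against 0.04 and 0.09 over all tested probes. In the separate mice given antimiR-34a, 8 and 7 of the 9 fell (28.1% and 16.3% of all tested probes were called lower), with medians of -1.21 and -1.24. Without the muscle-bearing array, 7 of 9 fell in 21% O2 with scrambled antimiR, as Peg3 was no longer called (-0.30, adjusted p = 0.131).

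**Figure D2:**
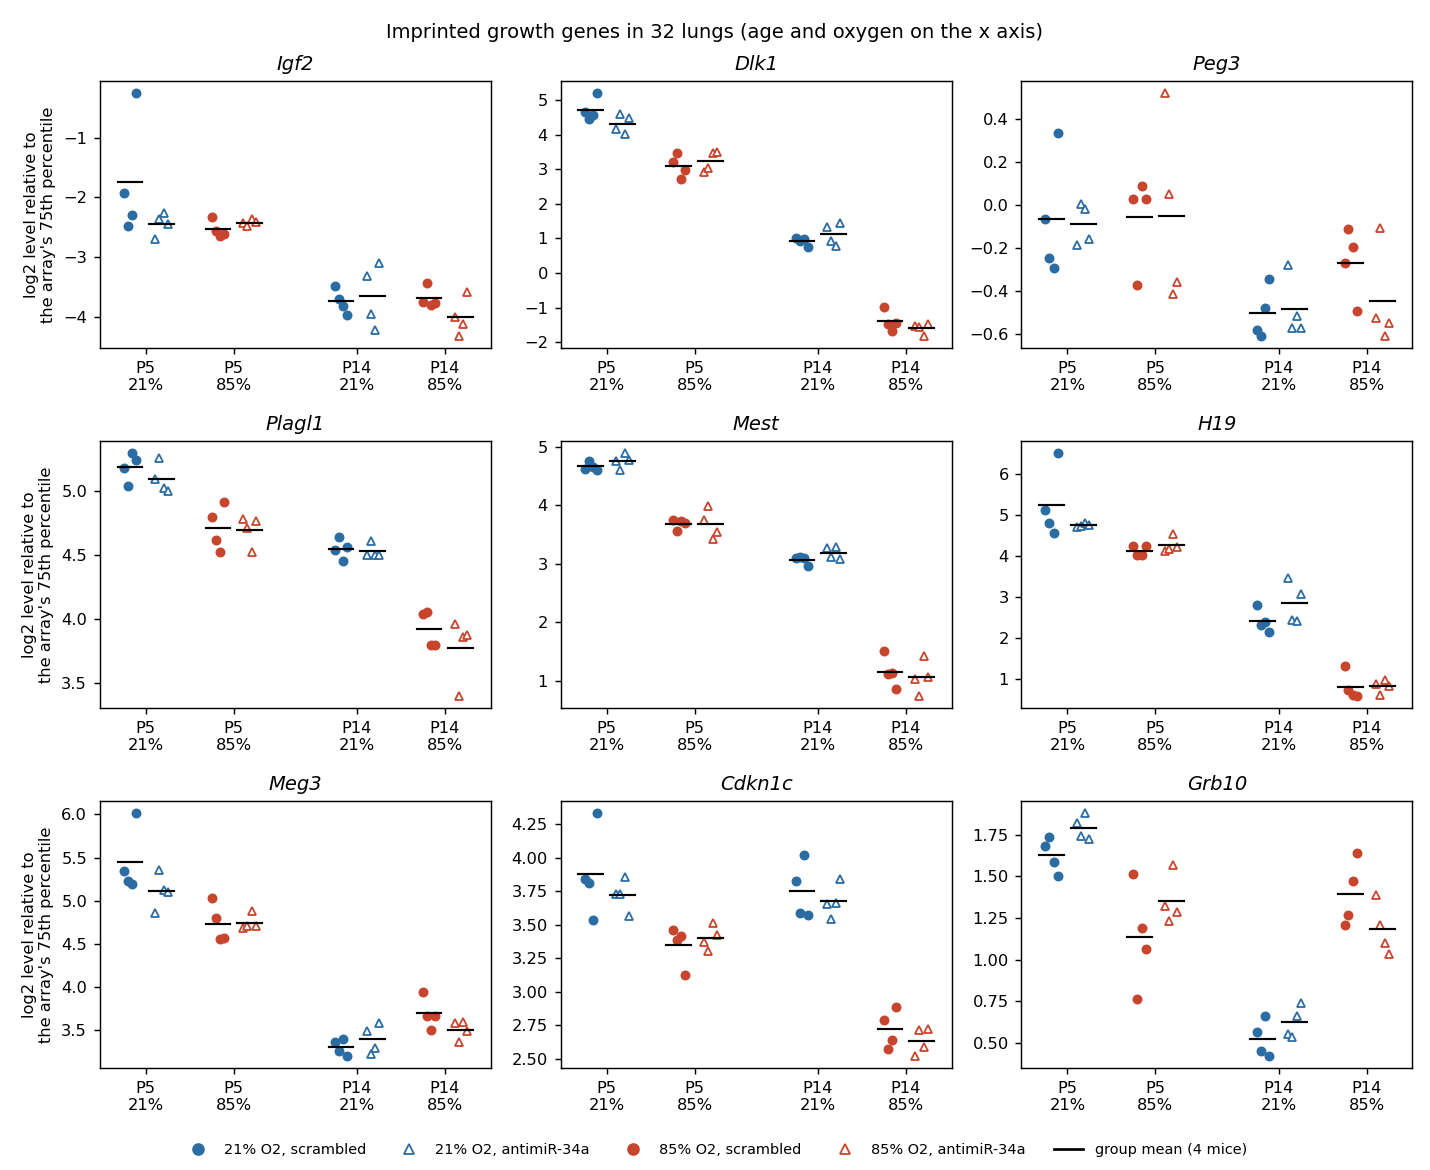
Log2 level of each gene's main probe scaled to the 75th percentile of its array (y axes, scaled per gene) in the 8 groups (x axes, age and oxygen), with 1 point per mouse, filled circles for scrambled antimiR, open triangles for antimiR-34a and a line at the mean of 4 mice. Dlk1, Mest and H19 drop in steps with age and with 85% O2, Grb10 is lowest at P14 in 21% O2, and Cdkn1c is lowest at P14 in 85% O2.

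**Figure D3:**
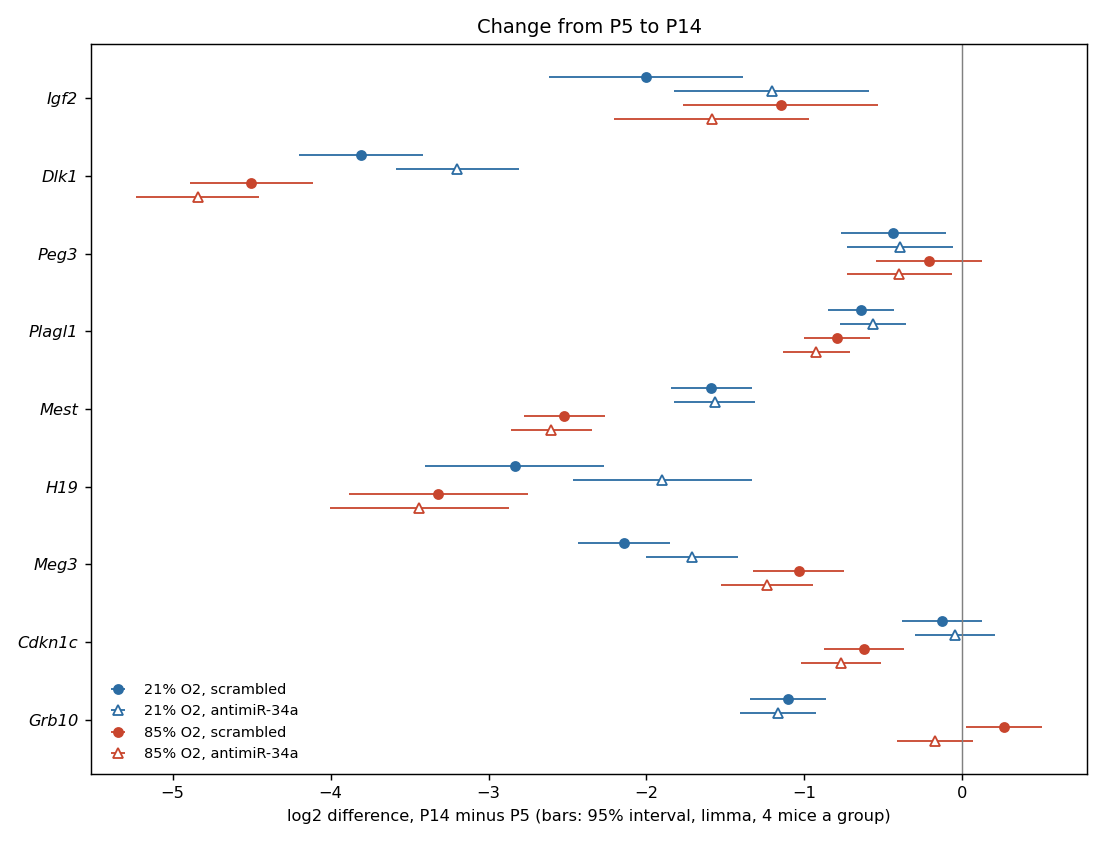
Change from P5 to P14 (x axis, log2 difference of group means, with 95% intervals from limma, 4 mice a group) of each gene in 21% O2 (blue) and 85% O2 (red), with scrambled antimiR (filled circles) and antimiR-34a (open triangles). Dlk1 and Mest lie further left in 85% O2, and Meg3 and Grb10 further left in 21% O2.

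Among the paternally expressed genes, Dlk1 gave the widest range of all members. Levels are log2 values scaled to the 75th percentile of their array and are compared within a probe only. In 21% O2 with scrambled antimiR, the 4 mice had Dlk1 levels of 4.67, 4.47, 4.58 and 5.21 at P5 and 1.02, 0.93, 0.97 and 0.77 at P14. In 85% O2 they had 3.22, 3.48, 2.72 and 2.997 at P5 and -0.98, -1.49, -1.68 and -1.44 at P14. The 4 groups did not overlap, in the order P5 in 21% O2, P5 in 85% O2, P14 in 21% O2 and P14 in 85% O2. The change with age was -3.81 (SE 0.19, adjusted p = 1.15e-13) in 21% O2 and -4.501 (SE 0.19, adjusted p = 8.41e-15) in 85% O2. With antimiR-34a, Dlk1 fell 9.18-fold and 28.7-fold.

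Mest showed the same order with less spread between mice. Its levels at P5 were 4.62, 4.76, 4.66 and 4.604 in 21% O2 and 3.75, 3.55, 3.72 and 3.697 in 85% O2. At P14 they were 3.105, 3.12, 3.09 and 2.97 in 21% O2 and 1.51, 1.13, 1.14 and 0.86 in 85% O2. Here too no group overlapped another of these 4. Mest fell 3.01-fold in 21% O2, -1.59 (SE 0.12, adjusted p = 2.06e-10), and 5.74-fold in 85% O2, -2.52 (SE 0.12, adjusted p = 8.64e-14). The muscle-bearing array did not stand out for Mest. The falls with antimiR-34a were -1.57 and -2.603.

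Plagl1 encodes a zinc finger transcription factor that acts on other imprinted genes. It fell by less, from 5.18, 5.04, 5.297 and 5.25 at P5 to 4.54, 4.64, 4.45 and 4.56 at P14 in 21% O2 and from 4.79, 4.62, 4.53 and 4.91 to 4.04, 4.05, 3.799 and 3.79 in 85% O2. The change was -0.64 (SE 0.10, adjusted p = 1.14e-05) in 21% O2 and -0.79 (SE 0.10, adjusted p = 9.42e-07) in 85% O2, with no overlap between ages. With antimiR-34a it was -0.57 and -0.92, the former not called with the mean of its probes (adjusted p = 0.0632).

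Igf2 had a single probe, with levels of -1.93, -2.48, -2.300 and -0.25 at P5 and -3.49, -3.700, -3.82 and -3.97 at P14 in 21% O2. The last of the P5 values is that of the muscle-bearing array, and the other 3 had a mean of -2.24 ± 0.28 (SD, n = 3). In 85% O2 the levels were -2.32, -2.57, -2.65 and -2.61 at P5 and -3.75, -3.43, -3.802 and -3.77 at P14. All P14 values lay under all P5 values. The fall was 4.01-fold in 21% O2, -2.003 (SE 0.30, adjusted p = 5.00e-06), and without the muscle-bearing array the change was -1.51 (SE 0.20, adjusted p = 1.46e-06). The methods' t-test on all arrays did not call it (adjusted p = 0.0611). In 85% O2 it was 2.22-fold, -1.15 (SE 0.30, adjusted p = 0.00301). AntimiR-34a groups changed by -1.21 and -1.59. In 85% O2, normexp background correction of the raw signals gave a change of -0.44 that was not called (adjusted p = 0.110).

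Peg3 moved least of the paternally expressed genes. Its levels in 21% O2 were -0.07, -0.25, -0.29 and 0.34 at P5 and -0.58, -0.61, -0.48 and -0.34 at P14. In 85% O2 they were 0.03, -0.37, 0.09 and 0.03 and -0.27, -0.11, -0.20 and -0.49, and the ages overlapped. The change was -0.44 (SE 0.16, adjusted p = 0.0265) in 21% O2, which was no longer called without the muscle-bearing array (above) or without P14 replicate 1 (adjusted p = 0.0604) or 2 (0.0655) or in the methods' t-test (0.0930), and -0.21 (SE 0.16, adjusted p = 0.31) in 85% O2. With antimiR-34a it was -0.39 (adjusted p = 0.0397, up to 0.0872 without single arrays and 0.0530 with no filter on dim probes) and -0.40 (adjusted p = 0.0571). The latter was called under normexp (adjusted p = 0.0340), with the stricter filter on background (0.0471), with the mean of the Peg3 probes (0.0265) and without any one of 3 single arrays (0.0176 to 0.0258).

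Of the maternally expressed genes, H19 fell the most. In 21% O2 the mice had H19 levels of 5.12, 4.79, 4.56 and 6.496 at P5, the last again on the muscle-bearing array, and 2.81, 2.31, 2.37 and 2.14 at P14. In 85% O2 they had 4.22, 4.01, 4.03 and 4.23 at P5 and 1.300, 0.73, 0.61 and 0.58 at P14. No group overlapped another of these 4. The fall was 7.12-fold in 21% O2, -2.83 (SE 0.28, adjusted p = 6.96e-09), and the change was -2.41 (SE 0.21, adjusted p = 2.34e-09) without the muscle-bearing array. It was 9.98-fold in 85% O2, -3.32 (SE 0.28, adjusted p = 9.11e-10). With antimiR-34a, H19 changed by -1.901 and -3.44.

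Meg3, the non-coding RNA of the Dlk1 domain, had levels of 5.34, 5.23, 5.19 and 6.01 at P5 and 3.36, 3.25, 3.398 and 3.198 at P14 in 21% O2. In 85% O2 they were 5.03, 4.796, 4.55 and 4.56 at P5 and 3.95, 3.67, 3.505 and 3.67 at P14. The oxygen groups changed places: 85% O2 was the lower at P5 and the higher at P14. Meg3 fell 4.41-fold in 21% O2, -2.14 (SE 0.14, adjusted p = 1.01e-11), and 2.05-fold in 85% O2, -1.04 (SE 0.14, adjusted p = 2.03e-06). The changes with antimiR-34a were -1.71 and -1.24.

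Cdkn1c, which restrains the cell cycle, was not called in 21% O2, with 3.84, 3.81, 3.53 and 4.33 at P5 and 3.82, 3.59, 4.02 and 3.57 at P14. The difference was -0.13 (SE 0.12, adjusted p = 0.397), with a 95% interval of -0.38 to 0.12, and it was 0.02 (adjusted p = 0.886) without the muscle-bearing array. In 85% O2 it fell from 3.46, 3.39, 3.42 and 3.12 to 2.79, 2.57, 2.64 and 2.89, a change of -0.62 (SE 0.12, adjusted p = 2.06e-04). The mice given antimiR-34a showed -0.05 in 21% O2 (adjusted p = 0.77) and -0.77 in 85% O2 (adjusted p = 2.56e-05).

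Grb10 had the opposite pattern to Cdkn1c. In 21% O2 its levels were 1.68, 1.74, 1.59 and 1.504 at P5 and 0.56, 0.45, 0.66 and 0.42 at P14, a 2.15-fold fall of -1.105 (SE 0.12, adjusted p = 2.82e-08). In 85% O2 they were 1.51, 0.77, 1.19 and 1.06 at P5 and 1.21, 1.27, 1.47 and 1.64 at P14, where the ages overlapped and the difference of 0.26 (SE 0.12, adjusted p = 0.0717) was not called. It was called as a rise under normexp (0.30, adjusted p = 0.0391), without P5 85% O2 replicate 1 (0.39, adjusted p = 0.00594) and without P14 85% O2 replicate 1 (0.33, adjusted p = 0.0366). The antimiR-34a groups gave -1.17 (adjusted p = 9.16e-09) and -0.17 (adjusted p = 0.271).

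Whether the change from P5 to P14 itself differed between 85% O2 and 21% O2 was tested as an interaction. In mice given scrambled antimiR it differed for 5 of the 9 genes, where 40.8% of all tested probes were called. Dlk1 fell further in 85% O2, by a difference of -0.69 (SE 0.27, adjusted p = 0.0405). Mest and Cdkn1c also fell further in 85% O2, with differences of -0.93 (SE 0.18, adjusted p = 1.80e-04) and -0.50 (SE 0.17, adjusted p = 0.0246). Meg3 fell less in 85% O2, with a difference of 1.104 (SE 0.20, adjusted p = 1.13e-04), and Grb10 had the widest difference of the members called, 1.37 (SE 0.17, adjusted p = 8.40e-07). With antimiR-34a, 6 of 9 were called and 43.0% of all tested probes. Dlk1 (-1.64), Mest (-1.03), Cdkn1c (-0.72), H19 (-1.54) and Plagl1 (-0.36) fell further in 85% O2 there, and Grb10 (1.00) fell less, while Meg3 (0.47, adjusted p = 0.0597) was not called. The Meg3 difference was called there with only the compared groups in the fit (adjusted p = 0.0226), in the methods' t-test (0.0391) and without any one of 4 single arrays (0.0324 to 0.0496). Mest, Cdkn1c, Dlk1 and Grb10 were thus called in the same direction with both antimiRs. The Dlk1 difference with scrambled antimiR was close to the threshold. It was lost under normexp, quantile normalization, the authors' values and no filter on dim probes. It was also lost with only the compared groups in the fit and in the methods' t-test (adjusted p = 0.0509 to 0.0831 over these settings). Without most single arrays it was lost as well (adjusted p up to 0.101). The Dlk1 difference with antimiR-34a (adjusted p = 3.01e-05) was called under each of these settings and without any one array of the compared groups. The Cdkn1c difference with scrambled antimiR was lost with only the compared groups in the fit (adjusted p = 0.0802) and in the methods' t-test (0.123), and without any one of 3 single arrays (0.0527 to 0.0694). That of Plagl1 with antimiR-34a was lost in the fit with a replicate block (adjusted p = 0.0510), under normexp (0.0785), with no filter on dim probes (0.0683), with only the compared groups (0.0795), in the methods' t-test (0.127) and without most single arrays (up to 0.137). For H19 with scrambled antimiR the difference was -0.49 (adjusted p = 0.333) with all arrays and -0.90 (adjusted p = 0.0138) without the muscle-bearing array. For Igf2 it was 0.85 (adjusted p = 0.111) with all arrays and 0.36 (adjusted p = 0.317) without that array, but it was called under normexp (0.93, adjusted p = 0.0249) and without P5 21% O2 replicate 2 (1.10, adjusted p = 0.0382). Without the muscle-bearing array, that of Dlk1 was -0.85 (adjusted p = 0.0118). With shares this large among all tested probes, 5 and 6 of 9 do not set the members apart.

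At P5, 7 of the 9 genes were lower in 85% O2 in mice given scrambled antimiR, where 26.4% of all probes tested at that age were called lower and 43.9% were called in either direction. Dlk1 was 3.08-fold lower, -1.63 (SE 0.20, adjusted p = 2.57e-05), and Mest 1.97-fold lower, -0.98 (SE 0.10, adjusted p = 5.51e-06). H19 (-1.12, and -0.70 without the muscle-bearing array), Meg3 (-0.71), Cdkn1c (-0.53), Grb10 (-0.50) and Plagl1 (-0.48) were lower too, and the oxygen groups of Grb10 overlapped. Without the muscle-bearing array, Meg3 (-0.52, adjusted p = 0.00522) and Cdkn1c (-0.38, adjusted p = 0.00952) were still called. In the methods' t-test, H19 (adjusted p = 0.155), Meg3 (0.0708), Cdkn1c (0.0969) and Grb10 (0.101) were not called. Igf2 (-0.80, adjusted p = 0.0725, and -0.30, adjusted p = 0.0768, without the muscle-bearing array, but -1.04, adjusted p = 0.0269, without replicate 2 of the 21% O2 group, and -0.98, adjusted p = 0.0438, without replicate 3) and Peg3 (0.01, 95% interval -0.39 to 0.41) were not called. With antimiR-34a, 4 of the 9 were lower, Dlk1 (-1.08), Mest (-1.09), Grb10 (-0.44) and Plagl1 (-0.40), where 29.5% of all tested probes were called lower and 46.6% in either direction. H19 (-0.49) and Cdkn1c (-0.32) did not overlap between oxygen levels there but were not called (adjusted p = 0.19 and 0.0642). With only the compared groups in the fit, both were called (adjusted p = 0.00444 and 0.0124), and so was Meg3 (adjusted p = 0.0236). The main fit also takes its spread from P5 21% O2 scrambled antimiR, which holds the muscle-bearing array. H19 had an SD of 0.87 in that group, against 0.04 and 0.19 in the antimiR-34a groups compared. The part of that array in these calls was not tested. H19 and Cdkn1c were also called in the methods' t-test (adjusted p = 0.0420 and 0.0261), Cdkn1c under quantile normalization (0.0421) and with the authors' values (0.0420), and Meg3 with the mean of its probes (0.0133).

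At P14, the members split. With scrambled antimiR, 5 genes were lower in 85% O2 and 2 were higher, where 60.8% of all tested probes were called, and 32.4% were called lower, so that the count of 7 does not set the members apart. Dlk1 was 4.99-fold lower, -2.32 (SE 0.16, adjusted p = 7.74e-08), Mest 3.76-fold, -1.91 (SE 0.14, adjusted p = 1.27e-07), and H19 3.04-fold, -1.61 (SE 0.23, adjusted p = 5.32e-05). Cdkn1c was 2.04-fold lower, -1.03 (SE 0.11, adjusted p = 3.06e-06), and Plagl1 1.55-fold, -0.63 (SE 0.11, adjusted p = 2.40e-04). Grb10 was 1.83-fold higher, 0.87 (SE 0.11, adjusted p = 1.00e-05), and Meg3 1.31-fold higher, 0.39 (SE 0.10, adjusted p = 0.00471). The Meg3 call was lost after quantile normalization (0.22, adjusted p = 0.0922), with the authors' values (adjusted p = 0.0944) and with the mean of the Meg3 probes (0.0860). Igf2 differed by 0.06 (95% interval -0.42 to 0.53) and Peg3 by 0.24 (-0.02 to 0.49). Peg3 was called higher with the mean of its probes (0.45, adjusted p = 0.00723) and without P14 85% O2 replicate 4 (0.31, adjusted p = 0.0421). With antimiR-34a, 65.6% of all tested probes were called (37.8% were called lower) and 6 members were, of which Dlk1 (-2.73), Mest (-2.12), H19 (-2.02), Cdkn1c (-1.04) and Plagl1 (-0.76) were lower and Grb10 (0.56) was higher. In the domain that Igf2 and H19 share, H19 was therefore lower in 85% O2 at P14 in both sets of mice while Igf2 was not called in either with all arrays. Without P14 21% O2 antimiR-34a replicate 3, however, Igf2 was called lower in the mice given antimiR-34a (-0.55, adjusted p = 0.0331, against -0.36 with all arrays). The single Igf2 probe was dim at P14, with group medians of the processed intensity from 51.9 to 84.7, against 1281 to 5818 for H19. In the Dlk1 and Meg3 domain, Dlk1 was lower in both and the main Meg3 probe was not called lower in either, although another Meg3 probe was lower with antimiR-34a (-0.79).

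**Figure D4:**
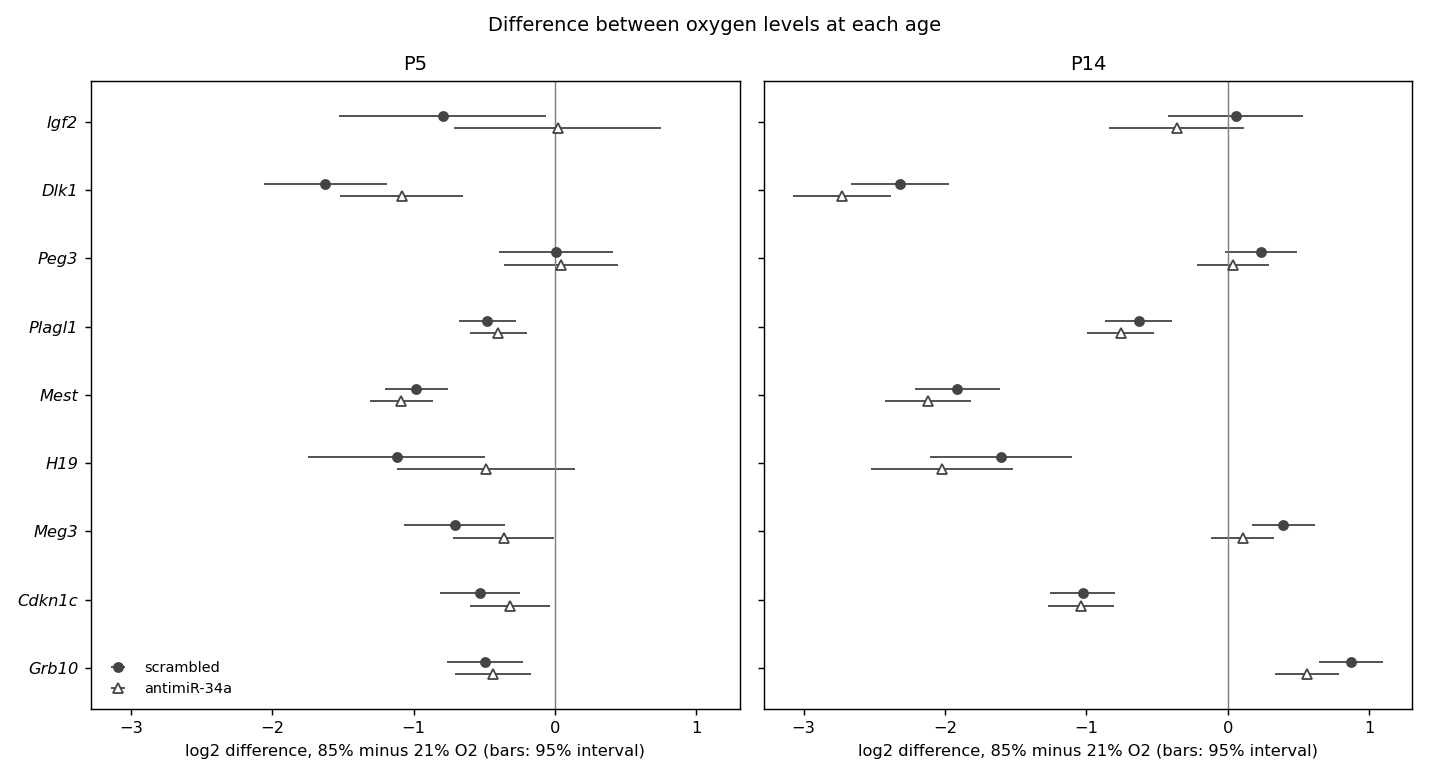
Difference between 85% O2 and 21% O2 (x axes, log2, with 95% intervals from limma, 4 mice a group) of each gene at P5 (left) and P14 (right), with filled circles for scrambled antimiR and open triangles for antimiR-34a. At P5 the called members lie left of 0, and at P14 Dlk1, Mest, H19, Cdkn1c and Plagl1 lie further left while Grb10 lies right of 0.

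Other tissue markers moved with age and oxygen as well. From P5 to P14 in 21% O2 with scrambled antimiR, all 11 measured proliferation genes fell (median -1.93) and all 7 adipocyte genes rose, and 7 of 10 mesenchymal genes rose (median 0.50). In 85% O2 all 11 proliferation genes fell too (median -1.27), and 6 of 10 mesenchymal genes rose and 1 fell. Among all tested probes, 23.5% were called lower at P14 and 27.8% higher in 21% O2, and 16.2% and 26.0% in 85% O2. At P14, all 7 adipocyte genes were lower in 85% O2. With scrambled antimiR, the mean score was 2.61 to 5.09 per mouse in 21% O2 and -2.48 to -2.08 in 85% O2. With antimiR-34a it was 2.27 to 5.90 in 21% O2 and spread from -2.31 to 1.96 in 85% O2. The low scores in 85% O2 rest partly on signals at background. Adipoq, for one, was well above background on 11 of 32 arrays and Cfd on 10. Of the mesenchymal genes, 9 of 10 were lower (median -0.59). In the thymus list 6 of 8 were lower, in the heart list 5 of 8 and in the skeletal muscle list 4 of 7. Over all probes tested at P14 with scrambled antimiR, 32.4% were called lower in 85% O2, 28.4% higher and 60.8% in either direction. At P5 with scrambled antimiR, all 11 proliferation genes (median -1.002), 8 of 10 mesenchymal genes (median -0.44) and 7 of 8 heart genes (median -1.70) were lower in 85% O2, where 26.4% of all tested probes were. With antimiR-34a these were 11 of 11, 5 of 10 (median -0.31) and 2 of 8 (median -1.02), against 29.5% of all. All 8 heart genes were above background on every array, and so were 2 of the 8 adipocyte genes and 4 of the 8 muscle genes. Of 8 red blood cell genes, 4 fell with age in 21% O2 and 6 in 85% O2, and 4 of the 7 tested at P14 were lower in 85% O2 (median -1.17). Of 8 epithelial genes, 5 rose with age and 1 fell in 21% O2, and 6 rose in 85% O2. Of these 8, 4 at P5 and 5 at P14 (median 0.34) were higher in 85% O2. Over all tested probes with scrambled antimiR, 17.5% were called higher in 85% O2 at P5 and 28.4% at P14. Of 8 endothelial genes, 6 rose with age in 21% O2, and 5 rose and 1 fell in 85% O2. The part of these lists in the members' differences was not tested.

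The mice given antimiR-34a were set against those given scrambled antimiR within each age and oxygen level. AntimiR-34a is directed at the following miRNA (RefSeq, GRCm38.p6, chr4:150068473-150068494, plus strand), with the seed (bases 2 to 8) in capitals.
mmu-miR-34a-5p: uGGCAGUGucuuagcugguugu
None of the 9 genes was called in any of the 4 comparisons (limma), and none had an unadjusted p under 0.05 in them, as 10.5% to 17.4% of all tested probes did. The methods' t-test also called 0 in each. Over all tested probes, the share called was 0.136% at P5 in 21% O2, 0.0639% at P5 in 85% O2, 0% at P14 in 21% O2 and 2.66% at P14 in 85% O2. At P5 in 21% O2 the members' differences ran from -0.70 (Igf2) to 0.16 (Grb10), and without the muscle-bearing array that of Igf2 was -0.20 and that of H19 moved from -0.50 to -0.08. In 85% O2 at P5 they ran from -0.02 (Plagl1) to 0.22 (Grb10). At P14 they ran from -0.08 (Cdkn1c) to 0.43 (H19) in 21% O2 and from -0.32 (Igf2) to 0.01 (H19) in 85% O2. The 95% intervals of these differences reached from -1.43 to 0.43 at P5 in 21% O2, from -0.62 to 0.85 at P5 in 85% O2, from -0.38 to 0.93 at P14 in 21% O2 and from -0.80 to 0.52 at P14 in 85% O2. The bound of -1.43 is that of Igf2 with the muscle-bearing array included; without it, the Igf2 difference of -0.20 had an SE of 0.13.

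The order of the 8 groups was much the same for Dlk1, Mest and H19. Each was highest in the P5 21% O2 pair of groups, next in P5 85% O2, then in P14 21% O2 and lowest in P14 85% O2, and the 2 antimiR groups within each such pair overlapped while neighbouring pairs did not. Plagl1 had that order too, but its P5 85% O2 groups overlapped those of P14 21% O2. For Igf2, all 4 P5 groups overlapped along the order and lay above all 4 P14 groups, from -1.74 ± 1.02 (SD, n = 4) in P5 21% O2 scrambled to -4.01 ± 0.31 in P14 85% O2 antimiR-34a. The Meg3 groups likewise overlapped along the order within each age and were apart between ages, with means of 4.73 to 5.44 in the P5 groups and 3.303 to 3.696 in the P14 groups, although with scrambled antimiR alone the oxygen groups did not overlap at either age. Cdkn1c was split by oxygen: its 4 groups in 21% O2 (means 3.67 to 3.88) lay above P5 in 85% O2 (3.35 and 3.401), which lay above P14 in 85% O2 (2.63 and 2.72). In Grb10 only the P14 21% O2 groups (0.52 and 0.62) stood clear of the other 6 (1.13 to 1.79). No neighbours in the order of Peg3 were separated.

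Genes with several probes were mostly read alike. The 5 further H19 probes above background throughout changed by -2.47 to -3.04 in 21% O2 and by -3.37 to -3.63 in 85% O2 with scrambled antimiR, and the second Dlk1 probe (A_55_P2105371) by -3.89 and -5.404. That Dlk1 probe was well above background on 3 of the 4 arrays of P14 in 85% O2 with scrambled antimiR. The remaining H19 probe (A_55_P1961125), well above background on 16 of 32 arrays, was not called in either comparison (0.20 and 0.76). The Mest probes agree within a narrow range, with changes of -1.59 to -1.70 in 21% O2 and -2.06 to -2.52 in 85% O2. Plagl1 was not uniform: the probe A_52_P532456 changed by -0.69 and -0.84 and A_55_P2153251 by -0.73 and -0.48, as the main probe fell, whereas A_55_P1961965, which lies upstream of it at chr10:12848421-12848480 (mm9), rose by 0.62 in 21% O2 and was not called in 85% O2 (0.08). That probe was also lower in 85% O2 at P14 (-0.78). The second Peg3 probe (A_55_P2163319) fell by 0.65 in 21% O2 and was higher in 85% O2 at both ages (0.39 at P5 and 0.67 at P14), which the main probe was not. Of the Meg3 probes, A_52_P196568 fell by 2.05 and 0.83 and was higher in 85% O2 at P14 (0.56), and A_55_P2033407 fell by 1.60 and 1.12 and was not called between oxygen levels at P14 (-0.33). The transcript form that each probe reads was not determined.

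Other imprinted genes, 47 with a tested probe, changed in both directions. In 21% O2 with scrambled antimiR, 17 fell and 8 rose from P5 to P14 (median -0.09), and in 85% O2, 15 fell and 11 rose (median -0.04). Over all tested probes, 23.5% were called lower and 27.8% higher at P14 in 21% O2, and 16.2% lower and 26.0% higher in 85% O2. Of the 47, 9 fell in both, 2 rose in both and 3 changed in opposite directions. Klf14, a maternally expressed transcription factor gene, was called lower in both (-3.23 and -1.79), but its probe was well above background on 2 of the 4 arrays of P14 in 21% O2 and on 3 of the 4 in 85% O2, so that these sizes are uncertain. Mirg, a non-coding RNA of the Dlk1 and Meg3 domain, fell by 1.98 and 0.97, with a difference between oxygen levels of 1.02, beside -2.14, -1.04 and 1.10 for Meg3. With antimiR-34a that difference was 0.43 for Mirg (adjusted p = 0.218, not called) and 0.47 for Meg3. In P5 21% O2 scrambled antimiR, the group of the muscle-bearing array, Mirg levels ran from 1.13 to 2.45 (mean 1.53, SD 0.62). Mirg was not tested without that array. The paternally expressed Magel2 fell by 1.55 in 21% O2 and by 3.64 in 85% O2. Its P5 level was higher in 85% O2 by 1.63, whereas no member was called higher at P5 on its main probe. The only rises in both were those of Peg13, a non-coding RNA (0.54 and 0.58), and Kcnq1, a potassium channel gene (0.64 and 0.46).

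**Figure D5:**
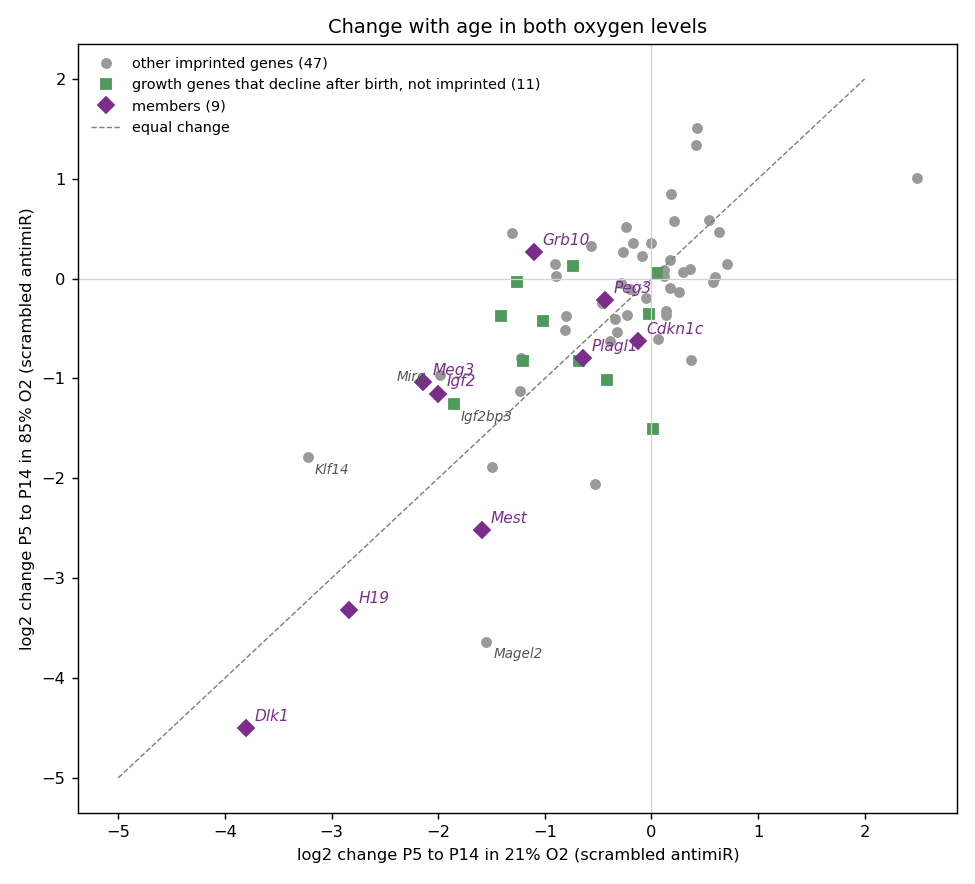
Change from P5 to P14 in 21% O2 (x axis) and in 85% O2 (y axis), log2, with scrambled antimiR, for the 9 members (diamonds), 47 other imprinted genes (circles) and 11 growth genes that are not imprinted (squares), with a dashed line of equal change. Dlk1, H19 and Mest lie below the line at the lower left (for H19 the difference was -0.49, adjusted p = 0.333, and -0.90, adjusted p = 0.0138, without the muscle-bearing array), Meg3, Igf2 and Grb10 lie above it (for Igf2 the difference was 0.85, adjusted p = 0.111, and 0.36, adjusted p = 0.317, without the muscle-bearing array), and most other imprinted genes lie near 0.

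Of 11 growth genes that decline after birth without being imprinted, 8 fell and none rose in either oxygen level with scrambled antimiR (medians -0.74 and -0.42), and 6 fell in both. Among all tested probes, 23.5% were called lower at P14 in 21% O2 and 16.2% in 85% O2. The list was chosen for a decline after birth, so these counts only describe it. Igf2bp3 (-1.85 and -1.26) and Igf2bp1 (-1.41 and -0.38) encode proteins that bind Igf2 mRNA, and Ezh2 (-1.21 and -0.83) encodes a histone methyltransferase. At P14, 5 of the 11 were higher and 3 lower in 85% O2, among them Igf2bp1 and Igf2bp3 (1.14 and 0.96) and Ezh2 (-0.38). There, 28.4% of all tested probes were called higher, 32.4% lower and 60.8% in either direction, so these counts do not clearly set the list apart. Among 5 genes that act with Igf2 or Grb10, Igf1r, the receptor of Igf1 and Igf2, fell in both oxygen levels (-0.45 and -0.52), and so did the insulin receptor substrate gene Irs1 (-0.40 and -1.41). Igf1 rose in 85% O2 (0.88, against -0.28 with adjusted p = 0.162 in 21% O2), as did Irs2 (1.38, against -0.06 in 21% O2), and at P14 both were higher in 85% O2 (1.31 and 1.62) while Irs1 was lower (-1.35). The same held with antimiR-34a, with 1.59 for Igf1, 1.18 for Irs2 and -0.91 for Irs1. At P14 in 85% O2, Irs1 was higher with antimiR-34a than with scrambled antimiR (0.48, adjusted p = 0.0495). Insr, the insulin receptor gene, was not called with age in mice given scrambled antimiR (-0.06 and -0.03) and fell in those given antimiR-34a (-0.27 and -0.32).

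As a description, the genes whose log2 levels were most like each member over the 32 arrays were sought among 17841 named genes, with the 9 members left out. The arrays fall into groups by age and oxygen, so that the points share their age, oxygen level and slide. Among these, Tro (trophinin) was nearest to the mean of the members (r = 0.967) and to Dlk1 (0.972) and H19 (0.949), which were closer to each other (0.984). Next to the mean came Tsga13 (0.955), Palm3 (0.954), Tead2 (0.952), Fabp7 (0.948), Rad51ap1 (0.946), Nusap1 (0.945), Col9a2 (0.944), Sncaip (0.943) and Fam64a (0.943). For Meg3 the nearest were Mirg (0.968), of the same domain, the fibrillin gene Fbn2 (0.958) and Sct (0.954). For Igf2 they were Col26a1 (0.938), the angiotensin receptor gene Agtr2 (0.933) and Mirg (0.923), beside 0.928 for the member Meg3. Mest and Plagl1 shared Nnt (0.982 and 0.968) and Maged2 (0.979 and 0.964), followed by Car12 (0.978) for Mest and Col9a2 (0.963) for Plagl1. Cdkn1c was nearest to the hemidesmosome collagen gene Col17a1 (0.949), and Grb10 to Igsf3 (0.946). Peg3 had no close match, its nearest being Npas3 (0.757).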

How the data were processed

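Total RNA of 32 lungs was labelled with 1 colour on Agilent 60-mer mouse arrays. The authors deposited the spot intensity values that Feature Extraction 10.7.3.1 wrote for each array, and a table of their own log2 values, which were background-corrected and normalized between arrays per the methods. From the deposited processed intensity, log2 values were taken relative to the 75th percentile of each array, after control and outlier spots were left out and replicate spots averaged. Testing was limited to probes that every array of 1 or more of the compared groups showed well above background, and was done with limma 3.58.1 (R 4.3.3): one fit of 8 groups for changes with age and their difference between oxygen levels, and one fit of 4 groups per age for oxygen and antimiR differences. P-values were adjusted over all tested probes (Benjamini-Hochberg) and called under 0.05. Precision was set by 4 mice a group. The labels name the groups and number the mice. Whether these came from separate litters is not given, so p-values measure the spread between these mice.

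Named genes were the 9 members by their brightest probe, the 3 largest falls and rises in 21% O2 among list genes called at both oxygen levels, the whole list of IGF partners, and the genes with the highest correlations to the members. The members and lists were chosen with earlier results of these data known. Alternatives were normexp correction with an offset of 50, quantile normalization, other filters, only the compared groups, the methods' t-test (Welch's approximation), a replicate block, the authors' log2 values, the mean of a gene's probes, a 2-fold threshold and leaving out each array. For the change with age in 21% O2 with scrambled antimiR, limma and the methods' t-test were also run on simulated data, with results not reported here.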

Additional observations from a re-analysis of the deposited data

Results flagged for a closer look

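In 5 of 72 sets of 4 mice (9 genes in 8 groups), a single mouse lay far from the other 3, with a gap to its nearest neighbour that took up most of the range of the set (Dixon's 95% limit). Chance alone passes this limit in about 1 of 20 sets. These were the Igf2 level of -3.43 in P14 85% O2 scrambled antimiR replicate 2 (the highest of its group), the Peg3 levels of -0.37 in P5 85% O2 scrambled antimiR replicate 2 (the lowest) and -0.11 in P14 85% O2 antimiR-34a replicate 2 (the highest), the Plagl1 level of 4.61 in P14 21% O2 antimiR-34a replicate 2 (the highest) and the Meg3 level of 4.88 in P5 85% O2 antimiR-34a replicate 3 (the highest). The muscle-bearing array did not pass this limit for any member.

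The change from P5 to P14 differed between 85% O2 and 21% O2 by the interaction test of limma in 11 cases, where 40.8% of all tested probes were called with scrambled antimiR and 43.0% with antimiR-34a. With scrambled antimiR the differences (85% O2 minus 21% O2, log2) were -0.69 for Dlk1, -0.93 for Mest, 1.10 for Meg3, -0.50 for Cdkn1c and 1.37 for Grb10. With antimiR-34a they were -1.64 for Dlk1, -0.36 for Plagl1, -1.03 for Mest, -1.54 for H19, -0.72 for Cdkn1c and 1.00 for Grb10. The calls of Dlk1 and Cdkn1c with scrambled antimiR and of Plagl1 with antimiR-34a were lost under several settings. Each oxygen level at each age lay on a slide of its own, and the part of the slide in these differences cannot be told apart from that of oxygen.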

How the results depend on the processing

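None of the 65 called changes of the members reversed under any setting. Of the 25 changes with age, oxygen or their difference that were not called, 11 changed sign and 11 were called under some setting. The number of members called moved by over 1.5 times in the following cases. With a 2-fold threshold added, it was 4 instead of 7 for oxygen at P14 and 2 instead of 7 at P5 with scrambled antimiR, 2 instead of 4 at P5 with antimiR-34a, and 2 instead of 5 (scrambled antimiR) and 3 instead of 6 (antimiR-34a) for the difference in the change with age. With only the compared groups in the fit it was 7 instead of 4 for oxygen at P5 with antimiR-34a and 3 instead of 5 for the difference with scrambled antimiR. The methods' t-test gave 3 instead of 7 for oxygen at P5 and 3 instead of 5 for the difference, both with scrambled antimiR. Why these counts moved was not tested beyond the threshold itself.

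With single arrays left out, the counts ran from 7 to 8 for the change with age in all 4 sets of mice. They ran from 3 to 6 for its difference with scrambled antimiR, where 3 were called without P5 21% O2 replicate 3, P14 85% O2 replicate 2 or P14 21% O2 replicate 3, and from 5 to 7 with antimiR-34a. For oxygen they ran from 7 to 8 at both ages with scrambled antimiR. With antimiR-34a they stayed at 4 at P5 and ran from 6 to 7 at P14. For the antimiR comparisons they stayed at 0. An array was left out only for the comparisons that held its group. The muscle-bearing array therefore stayed in the fit for oxygen at P5 with antimiR-34a, and the count without it was not obtained. Mice of the same replicate number in different groups had a median correlation of deviations of 0.01 over 112 pairs, of which 20 were over 0.1. Mice of different numbers had a median of -0.005 over 336 pairs, of which 57 were over 0.1. The labels do not say whether the numbers pair the mice, and these correlations cannot settle it. In the fit with a replicate block, 64 of the 65 calls held, and the difference for antimiR-34a had 5 called members, as Plagl1 was lost (-0.36, adjusted p = 0.0510). Quantile normalization shifted the median of all tested probes by 0.10 for oxygen at P5 with scrambled antimiR, by 0.22 at P14 with antimiR-34a and by 0.11 for the difference with antimiR-34a. Precision is limited by 4 mice a group, and an H19 probe, a Dlk1 probe and most adipocyte genes were not above background on every array. Normexp moved the change of Igf2 with age in 85% O2 with scrambled antimiR from -1.15 to -0.44, and the cause was not tested.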

Other observations

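Other imprinted genes called at both oxygen levels with scrambled antimiR included the paternally expressed Peg10, a gene derived from a retrotransposon, which was not well above background on any P14 array and was at least 2.46-fold lower at P14 in 21% O2 and at least 1.43-fold lower in 85% O2 (where 3 of the 4 P5 arrays measured it), the amino acid transporter gene Slc38a4 (-1.22 from P5 to P14 in 21% O2 and -0.79 in 85% O2) and Zim1, a neighbour of Peg3 (-1.23 and -1.13). Dhcr7, which completes cholesterol synthesis, fell in 21% O2 (-0.57) and rose in 85% O2 (0.32), and so did H13 (-0.17 and 0.35) and Tssc4 (-0.24 and 0.52). Among the growth genes that are not imprinted, Mycn (-0.41 and -1.01), Hmga2 (-0.68 and -0.83) and Igf2bp2 (-1.02 and -0.42) fell in both. For Peg10 the bound sets the P5 mean against, per P14 array, the higher of its own level and the lowest level among probes well above background. These genes were named after their values were seen.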
